A study of Homo sapiens with 12 samples.

Results

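The laminin chain genes and the integrin subunit genes were followed through 4 groups of H1 human embryonic stem cells that differ in ZNF263 and ZIC2. Genes were taken by symbol: every LAMA, LAMB or LAMC gene, every ITGA gene and every ITGB gene with a single digit. This gave 38 of the 27130 genes in the count table, 12 laminin genes and 26 integrin genes. H1 (WA01) is a long-established human embryonic stem cell line. The groups, with 3 libraries each, were wild type (WT), cells with a homozygous knockout (KO) of ZNF263, homozygous knockout cells that also overexpress ZIC2, and cells that overexpress ZNF263. ZNF263 and ZIC2 are zinc finger transcription factors, and the stated aim was to study ZNF263 in pluripotency with ZIC2 as its cofactor. The library names of the WT and knockout groups carry the tag vec, and those of the other groups do not. Whether the libraries of a group were separate cultures, whether knockout cells are 1 clone and what drives each overexpression are not stated in the labels. All p-values below thus measure only the spread between these libraries, which may be technical.

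Laminins are large secreted proteins of the basement membrane, each built from an alpha, a beta and a gamma chain wound into a coiled coil. The alpha chain carries the globular domains that bind cells, and the beta and gamma chains decide which trimers can form. Integrins are transmembrane receptors made of an alpha and a beta subunit. ITGA3, ITGA6 and ITGA7 pair with ITGB1, and ITGA6 also with ITGB4, to bind laminins. ITGA5 with ITGB1 binds fibronectin, and ITGAV with ITGB5 binds vitronectin. Human pluripotent cells are commonly grown on laminin or vitronectin and attach to them through these receptors.

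Counts per library ran from 17175183 to 21804410, and knockout replicate 1 held 43464609. Levels are given as CPM, the usual depth-scaled read count, after TMM scaling. ZNF263 stood at 39.2 ± 1.35 CPM (SD, n = 3) in WT and at 31.1 ± 0.128 CPM (SD, n = 3) in knockout, so a large part of its counts was still there. Its overexpression gave 239.6 ± 18.0 CPM (SD, n = 3). ZIC2 was 208.5 ± 3.74 CPM (SD, n = 3) in WT, 156 ± 3.81 CPM (SD, n = 3) in knockout and 2040.5 ± 175 CPM (SD, n = 3) with added ZIC2. The 9 markers of human pluripotent cells were detected in every group, with summed levels of 7238 to 7255 CPM in WT, 7816 to 7969.6 in knockout, 7541 to 7709 with ZIC2 and 7505 to 7639 under ZNF263 overexpression. Because these are bulk samples, fewer cells of a type and less RNA per cell cannot be told apart.

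Of the 38 genes, 30 had enough counts to be tested (11 laminin and 19 integrin genes). The other 8 were LAMB4, ITGA8, ITGAD, ITGAL, ITGAX, ITGB2, ITGB3 and ITGB6. They held between 1 count (ITGB6) and 75 counts (ITGB3) over all 12 libraries. ITGAL, ITGAD, ITGAX and ITGB2 encode integrins of white blood cells, and ITGB3 is the beta subunit of the platelet fibrinogen receptor. Calls are made at an adjusted p under 0.05 in edgeR's quasi-likelihood test, with p-values adjusted over all 15437 genes tested.

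In knockout against WT, 14 of the 30 tested genes were called, or 46.7%, not far from the 38.6% of all genes tested. Of these, 11 were higher (background 20% of all genes) and 3 were lower (background 18.5%). The median log2 fold change was 0.15 over the 30 genes and -0.01 over all genes. Among laminin genes 6 of 11 were higher and 1 was lower (median 0.46), and among integrin genes 5 of 19 were higher and 2 were lower (median 0.05). CPM ranges of the groups did not overlap for 16 of the 30, against 46.7% of all genes. Under a correction for GC content and gene length, 18 of the 30 were called, 14 higher and 4 lower, against 29.7% of all genes in that fit (15.9% higher and 13.8% lower).

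**Figure D1:**
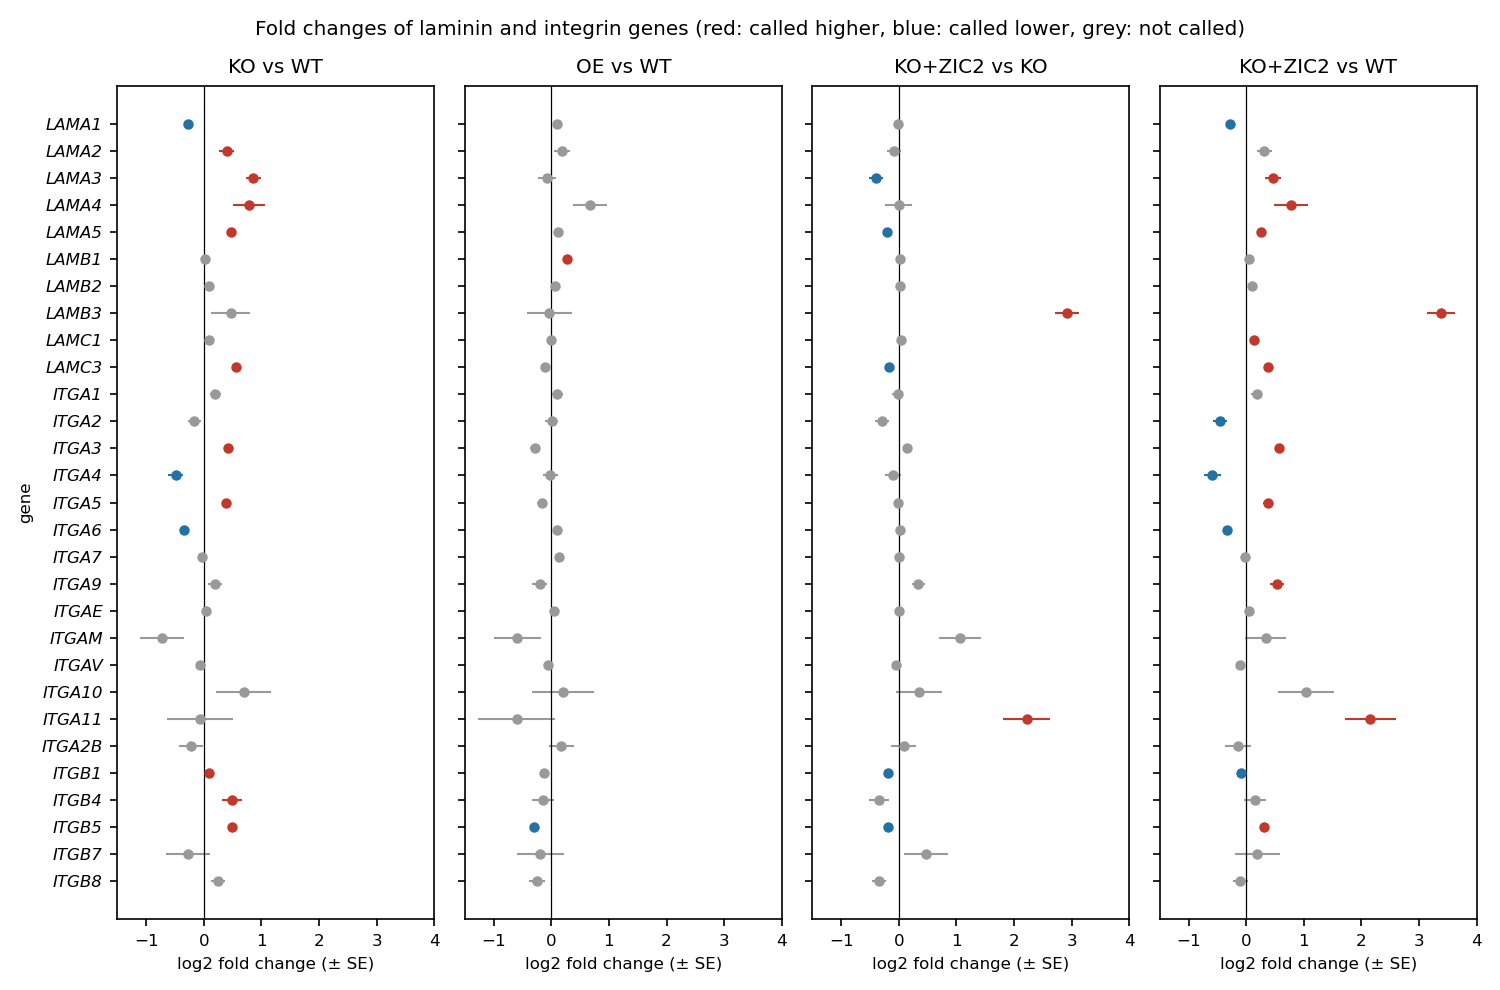
Log2 fold change of laminin and integrin genes in the 4 comparisons, with bars of 1 standard error from the edgeR fit, and with red points for genes called higher, blue for genes called lower and grey for genes not called. LAMB3 (2.91) and ITGA11 (2.22) stand furthest from 0 when ZIC2 was added to knockout cells, and LAMA3 (0.86) and LAMC3 (0.56) are among the called rises in knockout.

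Promoter sequences are shown for the genes called under ZNF263 overexpression (ITGB5 and LAMB1) and for those with the largest change with ZIC2 (LAMB3) or the leading alpha chain in the knockout (LAMA5). They come from RefSeq on GRCh38.p14 and run 5′ to 3′ on the gene's strand, from 250 bases before to 30 bases after the start. Capitals mark GGGAGGA, part of the purine-rich motif known for ZNF263, or its reverse complement TCCTCCC in the first 3 sequences, and CAGCAGG, part of the motif known for ZIC proteins, in the last.
ITGB5 chr3:124887336-124887615 minus strand: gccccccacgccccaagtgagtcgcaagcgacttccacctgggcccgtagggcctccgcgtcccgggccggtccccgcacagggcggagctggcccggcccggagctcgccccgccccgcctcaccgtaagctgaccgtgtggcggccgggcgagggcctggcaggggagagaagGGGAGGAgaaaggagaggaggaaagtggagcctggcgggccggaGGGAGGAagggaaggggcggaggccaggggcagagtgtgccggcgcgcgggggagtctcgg
LAMB1 chr7:108003132-108003411 minus strand: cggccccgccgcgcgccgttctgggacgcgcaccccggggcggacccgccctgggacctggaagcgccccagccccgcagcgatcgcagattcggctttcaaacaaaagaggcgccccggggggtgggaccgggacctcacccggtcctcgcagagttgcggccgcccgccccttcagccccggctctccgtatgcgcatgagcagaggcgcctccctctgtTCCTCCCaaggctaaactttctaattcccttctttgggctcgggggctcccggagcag
LAMB3 chr1:209652300-209652579 minus strand: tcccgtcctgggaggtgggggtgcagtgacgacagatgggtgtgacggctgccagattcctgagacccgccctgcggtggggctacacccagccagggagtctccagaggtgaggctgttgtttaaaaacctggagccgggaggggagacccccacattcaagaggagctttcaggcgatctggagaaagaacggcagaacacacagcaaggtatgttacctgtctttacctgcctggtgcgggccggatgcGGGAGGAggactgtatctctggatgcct
LAMA5 chr20:62367283-62367562 minus strand: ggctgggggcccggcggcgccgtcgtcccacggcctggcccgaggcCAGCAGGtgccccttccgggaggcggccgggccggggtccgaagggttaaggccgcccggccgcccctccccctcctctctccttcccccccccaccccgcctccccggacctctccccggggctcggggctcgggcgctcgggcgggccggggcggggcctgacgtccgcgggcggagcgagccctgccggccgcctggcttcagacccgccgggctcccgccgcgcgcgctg

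Of the 3 windows listed for ITGB5, the one printed held the most matches to GGGAGGA, 2, and the others held 1 and 0. Of the 3 listed for LAMB3, the one printed held 1 and the others none, so both were picked for their matches. LAMB1 and LAMA5 have 1 window each, with 1 match to its letters. The letters marked were set gene by gene. The LAMA5 window held no GGGAGGA on either strand, and the windows of ITGB5 and LAMB1 held no CAGCAGG. In the windows of 300 bases, which end 50 bases after the start, GGGAGGA on either strand was in 6360 of 35116 promoters (18.1%) and CAGCAGG or CCTGCTG in 3688 (10.5%). Promoters were listed for 26 of the 38 genes, 33 windows in all. GGGAGGA was in 11 of these 33 windows (10 genes) and CAGCAGG in 2, of ITGB1 and LAMA5. None of the 3 LAMB3 windows held CAGCAGG. A match describes the letters in these windows and is not a measured binding site.

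LAMC3 (chromosome 9, 133884504 to 133968446, in hg19 as are all gene positions here), a gamma chain found in several tissues, was higher in both knockout groups than in WT. LAMC3 stood at 37.3, 37.6 and 38.4 CPM in WT replicates 1 to 3, at 59.5, 53.8 and 52.5 in knockout, at 48.1, 50.4 and 49.2 in knockout with ZIC2, and at 33.98, 35.2 and 35.3 under ZNF263 overexpression. Knockout libraries were highest, ZIC2 libraries came next, and overexpression libraries were below every WT library. LAMC3 rose in knockout on the log2 scale by 0.56 (adjusted p = 2.12e-08, SE 0.05). Its value with ZIC2 against knockout was -0.17 (adjusted p = 0.0319, SE 0.05), a call that was lost without ZIC2 replicate 1 (adjusted p = 0.132), without ZIC2 replicate 3 (0.0813), without knockout replicate 1 (0.204) and in DESeq2 (0.0562). Against WT the ZIC2 libraries were higher by 0.38 (adjusted p = 8.6e-06, SE 0.05).

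LAMC1, the gamma chain of most laminins (chromosome 1, 182992595 to 183114727), was the gamma gene with the highest level per length. LAMC1 stood at 193, 207 and 211 CPM in WT replicates 1 to 3, at 236, 195 and 221 in knockout, at 235, 209 and 230.1 in knockout with ZIC2, and at 199, 205 and 205 under ZNF263 overexpression. Knockout replicate 2 and ZIC2 replicate 2 were the lowest of their groups, and the groups overlapped. LAMC1 was not called in knockout, where its log2 fold change was 0.09 (adjusted p = 0.184, SE 0.05) and its 95% interval was -0.02 to 0.21. Without knockout replicate 2 it was called, at 0.17 (adjusted p = 0.00242), and it was called under the GC and length correction at 0.14 (adjusted p = 0.00104). With ZIC2 against WT it was higher by 0.14 (adjusted p = 0.0465, SE 0.05), and this call was lost in DESeq2 (adjusted p = 0.0688), with RLE size factors (0.0549) and without any 1 of 5 libraries, ZIC2 replicates 1 and 3 and the 3 WT replicates (adjusted p from 0.0573 to 0.215).

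All 5 laminin alpha chain genes were called in knockout, where 38.6% of all genes were, 4 higher and 1 lower. The calls of LAMA2 and LAMA4 were lost without single libraries. LAMA5 (chromosome 20, 60884116 to 60942368) encodes the alpha chain of the laminins that support human pluripotent cells in culture. LAMA5 stood at 111, 123 and 122 CPM in WT replicates 1 to 3, at 178, 142 and 171 in knockout, at 146, 131 and 149 in knockout with ZIC2, and at 129, 126 and 128 under ZNF263 overexpression. Every knockout library was above every WT and overexpression library, and the ZIC2 libraries overlapped with knockout. LAMA5 rose in knockout by 0.47 (adjusted p = 4.4e-06, SE 0.06) and was higher with ZIC2 than in WT by 0.26 (adjusted p = 0.00296, SE 0.06). With ZIC2 against knockout its value was -0.21 (adjusted p = 0.0363, SE 0.06). That call was lost without ZIC2 replicate 1 or 2 (adjusted p = 0.0798 and 0.196) and without knockout replicate 1 or 3 (0.147 and 0.15).

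LAMA1 (chromosome 18, 6941743 to 7117813), the alpha chain of the laminin of the earliest embryonic basement membranes, was lower in both knockout groups. LAMA1 stood at 105, 110.5 and 109 CPM in WT replicates 1 to 3, at 102, 75.7 and 89.4 in knockout, at 93.3, 79.04 and 95.99 in knockout with ZIC2, and at 118, 117 and 112 under ZNF263 overexpression. Knockout and ZIC2 libraries were below every WT library, lowest in replicate 2 of each, and overexpression libraries were above every WT library. LAMA1 fell in knockout, with a log2 change of -0.27 (adjusted p = 0.0057, SE 0.07). Its value with ZIC2 against WT was -0.28 (adjusted p = 0.00605, SE 0.08), which was not called without ZIC2 replicate 2 (adjusted p = 0.0551). Between knockout with and without ZIC2 the log2 fold change was -0.01, with a 95% interval of -0.16 to 0.15, and under ZNF263 overexpression it was 0.10 (adjusted p = 0.709, SE 0.07). Replicate 2 of the knockout group and of the ZIC2 group was also the lowest of its group for LAMA5, LAMB1, LAMB2 and LAMC1.

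LAMA3 (chromosome 18, 21269407 to 21535029), the alpha chain of the epithelial laminin that anchors epidermis to dermis, was low. LAMA3 stood at 3.18, 3.36 and 2.95 CPM in WT replicates 1 to 3, at 5.92, 6.16 and 5.08 in knockout, at 4.002, 4.86 and 4.22 in knockout with ZIC2, and at 2.89, 2.77 and 3.27 under ZNF263 overexpression. Knockout libraries were above all others, ZIC2 libraries came next, and WT and overexpression libraries overlapped. LAMA3 rose in knockout by 0.86 (adjusted p = 1.65e-05, SE 0.13). With ZIC2 against knockout its value was -0.40 (adjusted p = 0.0432, SE 0.12), and the call was lost in DESeq2 (adjusted p = 0.149) and without ZIC2 replicate 1 (0.189), ZIC2 replicate 3 (0.12), knockout replicate 1 (0.138) or knockout replicate 2 (0.0893). Against WT the ZIC2 group was higher by 0.46 (adjusted p = 0.0136, SE 0.14), a call lost without ZIC2 replicate 2 (0.0748) or WT replicate 3 (0.0662).

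LAMA2 (chromosome 6, 129204286 to 129837710), the alpha chain of muscle and nerve laminin, stood at 5.26, 7.52 and 7.05 CPM in WT, 9.46, 7.22 and 9.09 in knockout, 8.11, 7.89 and 8.84 with ZIC2 and 6.33, 8.48 and 7.897 under ZNF263 overexpression. WT and knockout overlapped, with WT replicate 1 the lowest. The call in knockout, at 0.40 (adjusted p = 0.0161, SE 0.13), was lost without knockout replicate 1 (adjusted p = 0.101) or WT replicate 1 (0.115). With ZIC2 against WT it was at 0.31 (adjusted p = 0.0727, SE 0.14), and was called without WT replicate 2 (adjusted p = 0.0469) and under the GC and length correction (0.02). LAMA4 (chromosome 6, 112429134 to 112575917), the alpha chain of vascular laminin, was the lowest of the alpha genes per length, at 1.27, 1.23 and 0.8097 CPM in WT, 2.31, 1.42 and 1.59 in knockout, 1.52, 2.65 and 1.46 with ZIC2 and 2.07, 1.83 and 1.36 under overexpression. All WT libraries were below the other 9. Its log2 fold change was 0.78 (adjusted p = 0.0253, SE 0.27) in knockout, lost in DESeq2 (adjusted p = 0.0528), without knockout replicate 1 (0.25) and without WT replicate 3 (0.155). It was 0.78 (adjusted p = 0.0379, SE 0.29) with ZIC2 against WT, lost without ZIC2 replicate 2 (0.283), WT replicate 2 (0.058) or WT replicate 3 (0.181).

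None of the 3 laminin beta chain genes tested was called in knockout against WT, where 0 also had an unadjusted p under 0.05 in edgeR and DESeq2 likewise called none. LAMB1 (chromosome 7, 107564246 to 107643804) is the beta chain of most embryonic laminins. LAMB1 stood at 103, 105 and 103 CPM in WT replicates 1 to 3, at 112, 97.8 and 106 in knockout, at 107, 105 and 108 in knockout with ZIC2, and at 129, 122 and 126 under ZNF263 overexpression. Overexpression libraries lay above all the rest, and knockout libraries spanned the WT range. LAMB1 rose under ZNF263 overexpression by 0.27 (adjusted p = 0.00179, SE 0.04), one of the 2 genes of these families called there. Its knockout value was 0.03 (adjusted p = 0.666, SE 0.04), with a 95% interval of -0.06 to 0.12, and with ZIC2 against knockout it was 0.02 (adjusted p = 0.902, SE 0.04).

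LAMB2 (chromosome 3, 49158547 to 49170599), the beta chain of kidney filter and synaptic laminin, varied little. LAMB2 stood at 69.5, 68.9 and 71.02 CPM in WT replicates 1 to 3, at 77.3, 67.5 and 75.9 in knockout, at 80.9, 67.2 and 75.5 in knockout with ZIC2, and at 73.4, 71.95 and 72.9 under ZNF263 overexpression. Replicate 2 was the lowest library in both knockout groups, and ranges overlapped. Knockout against WT gave 0.08 (adjusted p = 0.277, SE 0.06), and 0.14 (adjusted p = 0.0365) without knockout replicate 2. Its value with ZIC2 against WT was 0.09 (adjusted p = 0.214, SE 0.06), and it was called without ZIC2 replicate 2, at 0.16 (adjusted p = 0.0291). The counted reads aligned to 1 place only, and the table also lists the pseudogene LAMB2P1, so the level of LAMB2 is uncertain.

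LAMB3 (chromosome 1, 209788218 to 209825820), the beta chain that joins LAMA3 in the epithelial laminin, showed the largest difference of any gene of these families. LAMB3 stood at 0.693, 0.587 and 0.857 CPM in WT replicates 1 to 3, at 1.28, 0.7904 and 0.653 in knockout, at 7.09, 7.34 and 8.199 in knockout with ZIC2, and at 0.982, 0.222 and 0.862 under ZNF263 overexpression. All 3 ZIC2 libraries were more than 5 times the highest of the other 9 libraries. LAMB3 rose with ZIC2 against knockout by 2.91 (adjusted p = 1.38e-09, SE 0.21) and against WT by 3.38 (adjusted p = 4.73e-10, SE 0.25). Pooled counts were 413 with ZIC2, 84 in knockout and 41 in WT. After scaling, the ratio to knockout was 7.46 (95% interval 5.89 to 9.55) and that to WT 10.5 (95% interval 7.58 to 14.8), intervals that cover counting error only. Knockout alone was at 0.46 (adjusted p = 0.301, SE 0.34) against WT. Its alpha partner LAMA3 was lower with ZIC2 than in knockout, as given above. Of the keratinocyte markers KRT5, KRT14, TP63 and DSG3, none passed the count filter. Their summed level was at most 0.746 CPM in any library, and KRT14 had no count in the ZIC2 libraries.

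**Figure D2:**
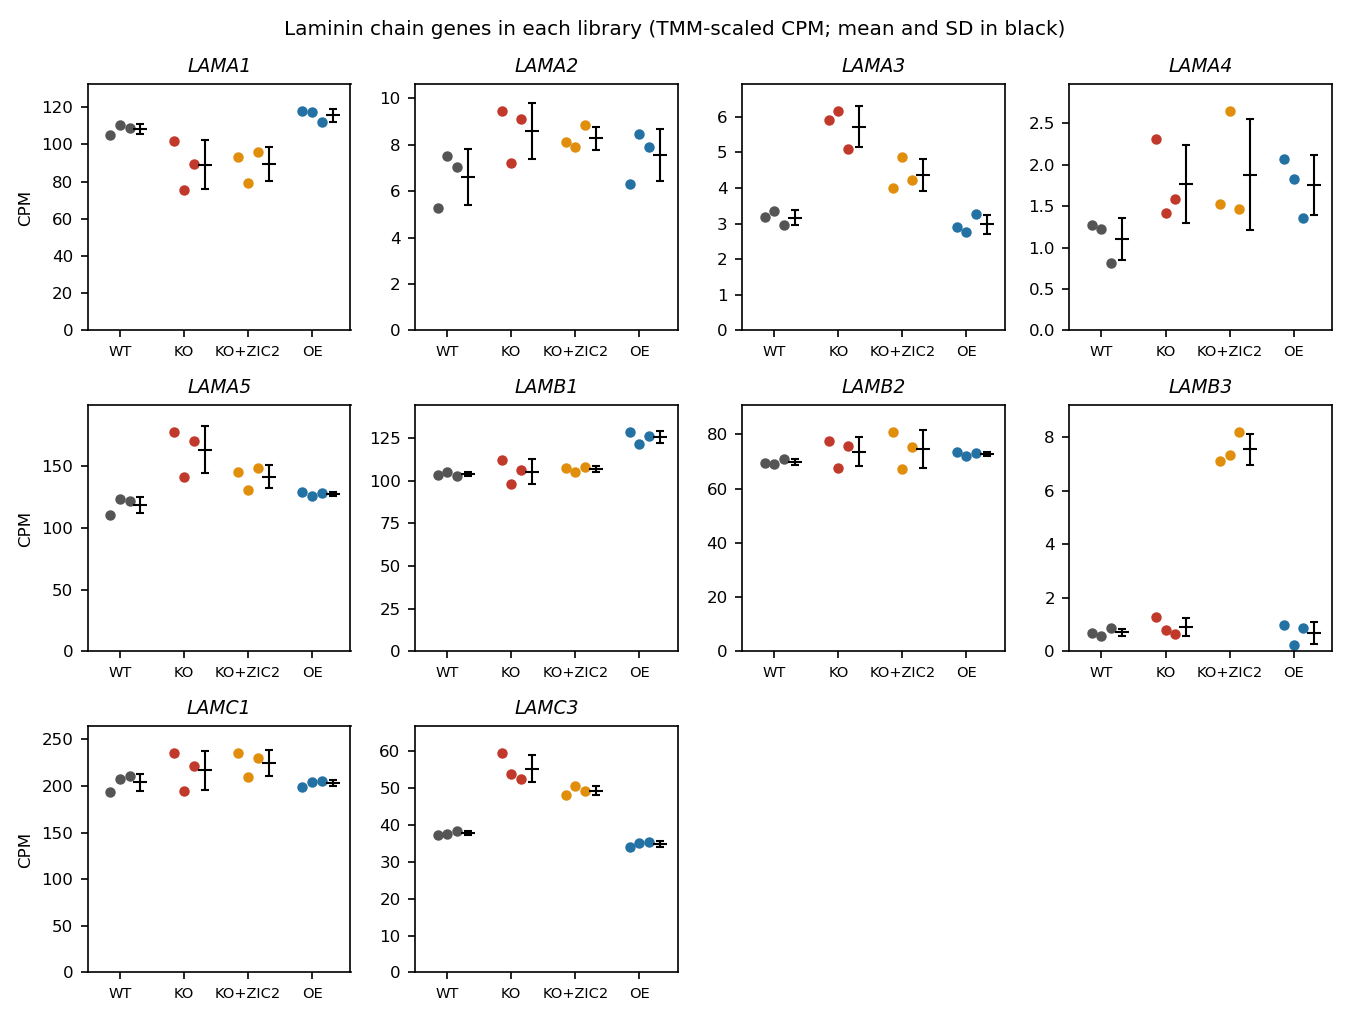
TMM-scaled CPM of laminin chain genes in each of the 12 libraries, with the mean and SD of each group in black and axes that start at 0. LAMA3 and LAMC3 are highest in the 3 knockout libraries, LAMB3 in the 3 libraries with ZIC2, and LAMB1 in the 3 libraries with ZNF263 overexpression.

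ITGB5 had the smallest adjusted p of the integrin genes in knockout and under ZNF263 overexpression. ITGB5 (chromosome 3, 124480795 to 124606152) encodes the beta subunit that joins ITGAV in the vitronectin receptor. ITGB5 stood at 416, 408 and 427 CPM in WT replicates 1 to 3, at 583, 581 and 594 in knockout, at 518, 507 and 518 in knockout with ZIC2, and at 346, 336 and 334 under ZNF263 overexpression. The 4 groups did not overlap, in the order knockout, ZIC2, WT and overexpression from high to low. ITGB5 rose in knockout by 0.49 (adjusted p = 7.94e-11, SE 0.03) and fell under ZNF263 overexpression, at -0.30 (adjusted p = 1.41e-05, SE 0.03). Both comparisons use the same WT libraries. With ZIC2 it was lower than in knockout, at -0.19 (adjusted p = 0.000328, SE 0.03), and higher than in WT, at 0.30 (adjusted p = 2.4e-07, SE 0.03).

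ITGB1 (chromosome 10, 33189246 to 33247293), the common beta subunit of most laminin, collagen and fibronectin receptors, differed less. ITGB1 stood at 356, 376 and 358 CPM in WT replicates 1 to 3, at 389, 387 and 387 in knockout, at 341, 339 and 347 in knockout with ZIC2, and at 327, 335 and 332 under ZNF263 overexpression. Knockout libraries were highest, and ZIC2 and overexpression libraries were below every WT library. Its knockout value of 0.09 (adjusted p = 0.0265, SE 0.03) was not called without knockout replicate 1 (adjusted p = 0.0637), knockout replicate 3 (0.0598), WT replicate 1 (0.127) or WT replicate 3 (0.13), with no count filter (0.0849) or in a fit of only those 2 groups (0.0685). With ZIC2 against knockout ITGB1 fell, at -0.18 (adjusted p = 0.000692, SE 0.03).

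Against WT the ZIC2 libraries gave an ITGB1 value of -0.09 (adjusted p = 0.0456, SE 0.03). That call was lost with the replicate block (adjusted p = 0.0611) and without ZIC2 replicate 1, 2 or 3 or WT replicate 2 (adjusted p from 0.0503 to 0.177), and the value became 0.01 under the GC and length correction (adjusted p = 0.757). Under ZNF263 overexpression ITGB1 was at -0.13 (adjusted p = 0.0688, SE 0.03) in edgeR and at -0.13 (adjusted p = 0.0356) in DESeq2, which called it, as did a fit of only those 2 groups (adjusted p = 0.00436).

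ITGB4 (chromosome 17, 73717408 to 73753899), the hemidesmosome subunit that pairs with ITGA6, was low, at 3.41, 1.97 and 3.57 CPM in WT, 4.29, 4.43 and 3.92 in knockout, 3.799, 3.09 and 3.05 with ZIC2 and 3.000, 2.99 and 2.22 under overexpression. Knockout libraries were the highest, and WT replicate 2 was the lowest of all 12. The knockout call at 0.49 (adjusted p = 0.0246, SE 0.17) was lost without WT replicate 2 (adjusted p = 0.225), without knockout replicate 1 (0.0626) and under the GC and length correction (0.0744). The remaining tested beta genes, ITGB7 and ITGB8, were not called in any of the 4 comparisons. ITGB8 was called in knockout under the correction, at 0.42 (adjusted p = 0.00531), and without knockout replicate 2, at 0.31 (adjusted p = 0.0425). With ZIC2 against knockout it was called without knockout replicate 2, at -0.41 (adjusted p = 0.0258), under the correction (0.0437) and with no count filter (0.0294).

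Of the 14 integrin alpha genes tested, 4 were called in knockout, or 28.6%, against 38.6% of all genes. ITGA6 (chromosome 2, 173292082 to 173371183), the main laminin-binding alpha subunit of human pluripotent cells, fell. ITGA6 stood at 302, 327 and 317 CPM in WT replicates 1 to 3, at 263, 233 and 249 in knockout, at 255, 249 and 249 in knockout with ZIC2, and at 344, 336 and 339.9 under ZNF263 overexpression. All 6 libraries with the knockout lay below the other 6, and overexpression libraries were above every WT library. The log2 fold change of ITGA6 was -0.34 (adjusted p = 8.84e-07, SE 0.04) in knockout and -0.33 (adjusted p = 1.91e-06, SE 0.04) with ZIC2 against WT. Between the knockout groups it was 0.01, with a 95% interval of -0.07 to 0.10. Its value under overexpression was 0.11 (adjusted p = 0.301, SE 0.04), not called, and 0.13 under the GC and length correction, which called it (adjusted p = 0.00814), as did a fit of only those 2 groups (0.0381).

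ITGA3 (chromosome 17, 48133332 to 48167849), another laminin-binding subunit with a preference for LAMA3 and LAMA5 laminins, was higher in knockout. ITGA3 stood at 23.7, 23.1 and 27.3 CPM in WT replicates 1 to 3, at 34.4, 33.8 and 30.8 in knockout, at 37.3, 36.9 and 36.1 in knockout with ZIC2, and at 20.3, 21.8 and 18.9 under ZNF263 overexpression. ZIC2 libraries were highest, then knockout, then WT, then overexpression, without overlap. ITGA3 rose in knockout by 0.42 (adjusted p = 3.18e-05, SE 0.07) and with ZIC2 against WT by 0.57 (adjusted p = 9.27e-07, SE 0.07). Its value with ZIC2 against knockout was 0.15 (adjusted p = 0.165, SE 0.06). Under overexpression it was at -0.29 (adjusted p = 0.0676, SE 0.07), not called, and at -0.33 (adjusted p = 0.00493) under the GC and length correction.

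ITGA5 (chromosome 12, 54789045 to 54813050), the fibronectin receptor subunit, rose as well. ITGA5 stood at 20.7, 24.9 and 22.9 CPM in WT replicates 1 to 3, at 30.3, 28.5 and 31.1 in knockout, at 33.4, 27.6 and 27.9 in knockout with ZIC2, and at 22.5, 18.8 and 20.2 under ZNF263 overexpression. The 6 libraries with the knockout were above the other 6. The log2 fold change was 0.39 (adjusted p = 0.000346, SE 0.08) in knockout and 0.38 (adjusted p = 0.000745, SE 0.08) with ZIC2 against WT, and -0.01 (adjusted p = 0.957, SE 0.07) between the knockout groups. ITGA4 (chromosome 2, 182321619 to 182403655), a subunit for fibronectin and VCAM1, stood at 4.51, 4.85 and 5.001 CPM in WT, 3.47, 3.53 and 3.26 in knockout, 2.63, 3.201 and 3.81 with ZIC2 and 4.75, 4.32 and 5.13 under overexpression. All 6 libraries with the knockout were below the other 6. ITGA4 fell in knockout, at -0.48 (adjusted p = 0.00537, SE 0.13), and with ZIC2 against WT, at -0.59 (adjusted p = 0.00248, SE 0.14). Its exons share 1571 bases (20.5%) with CERKL on the opposite strand, which held 12 counts in all, and the library kit named does not mark strand.

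ITGAV (chromosome 2, 187454790 to 187545629), the alpha partner of ITGB5, was not called in any of the 4 comparisons. ITGAV stood at 107, 107 and 102 CPM in WT replicates 1 to 3, at 104, 92.4 and 105 in knockout, at 93.7, 95.1 and 103 in knockout with ZIC2, and at 107, 101 and 97.8 under ZNF263 overexpression. The groups overlapped. Its log2 fold change in knockout was -0.06 (adjusted p = 0.355, SE 0.05), with a 95% interval of -0.17 to 0.04. Under the GC and length correction the sign turned, to 0.11 (adjusted p = 0.0265), so no direction is given for it. With ZIC2 against WT its value was -0.11 (adjusted p = 0.0911, SE 0.05), and it was called without ZIC2 replicate 3 (adjusted p = 0.0322), with no count filter (0.0299) and in a fit of only those 2 groups (0.036).

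ITGA11 (chromosome 15, 68594042 to 68724492), a collagen receptor subunit of fibroblasts, had few counts outside the ZIC2 libraries. ITGA11 stood at 0.116, 0.373 and 0.286 CPM in WT replicates 1 to 3, at 0.326, 0.105 and 0.233 in knockout, at 0.7599, 1.16 and 1.698 in knockout with ZIC2, and at 0.327, 0.0554 and 0.136 under ZNF263 overexpression. Each ZIC2 library was above the other 9. ITGA11 passed the count filter only through the ZIC2 libraries, in which it is high, so its fitted log2 differences of 2.22 against knockout and 2.15 against WT are given as a description. Pooled counts were 65 with ZIC2 and 21 in knockout, a scaled ratio of 4.696 (95% interval 2.83 to 8.09, which covers counting error only). Of 5 fibroblast markers tested, 2 were higher and 1 was lower with ZIC2 against knockout, where 4.99% of all genes were higher and 3.35% lower. LUM had no count in the ZIC2 and overexpression libraries, and DCN had none in the WT and overexpression libraries but was counted with ZIC2. The summed level of the 8 markers listed was 634.8 to 684.7 CPM with ZIC2, 553.7 to 598.5 in knockout and 504 to 516 in WT. Their part in the result was not tested.

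A further 2 alpha genes were called with ZIC2 against WT and are named here after their values were seen. ITGA9 was at 0.54 (adjusted p = 0.00158, SE 0.12) and ITGA2, a collagen receptor subunit, at -0.46 (adjusted p = 0.00519, SE 0.12). Without knockout replicate 2, ITGA2 was also called with ZIC2 against knockout, at -0.41 (adjusted p = 0.00618), as it was under the GC and length correction and with no count filter. Without knockout replicate 3, ITGA9 was called there, at 0.41 (adjusted p = 0.0452). Without knockout replicate 1, ITGA2 was also called in knockout against WT, at -0.36 (adjusted p = 0.0101). ITGA1, ITGA2B, ITGA7, ITGA10, ITGAE and ITGAM were called in none of the 4 comparisons. ITGA1 and ITGA7 were called in knockout under the GC and length correction, at 0.33 and -0.13, and with ZIC2 against WT, at 0.31 and -0.20. ITGA10 was called with ZIC2 against WT only without ZIC2 replicate 2, at 1.47 (adjusted p = 0.01). That replicate held 3 counts, against 18 and 11 in ZIC2 replicates 1 and 3, and all libraries held 3 to 19. The value is thus given as a description. Over the 14 alpha genes, log2 fold changes in knockout ran from -0.72 to 0.69, and the ends belong to ITGAM and ITGA10, which had few counts and were not called.

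**Figure D3:**
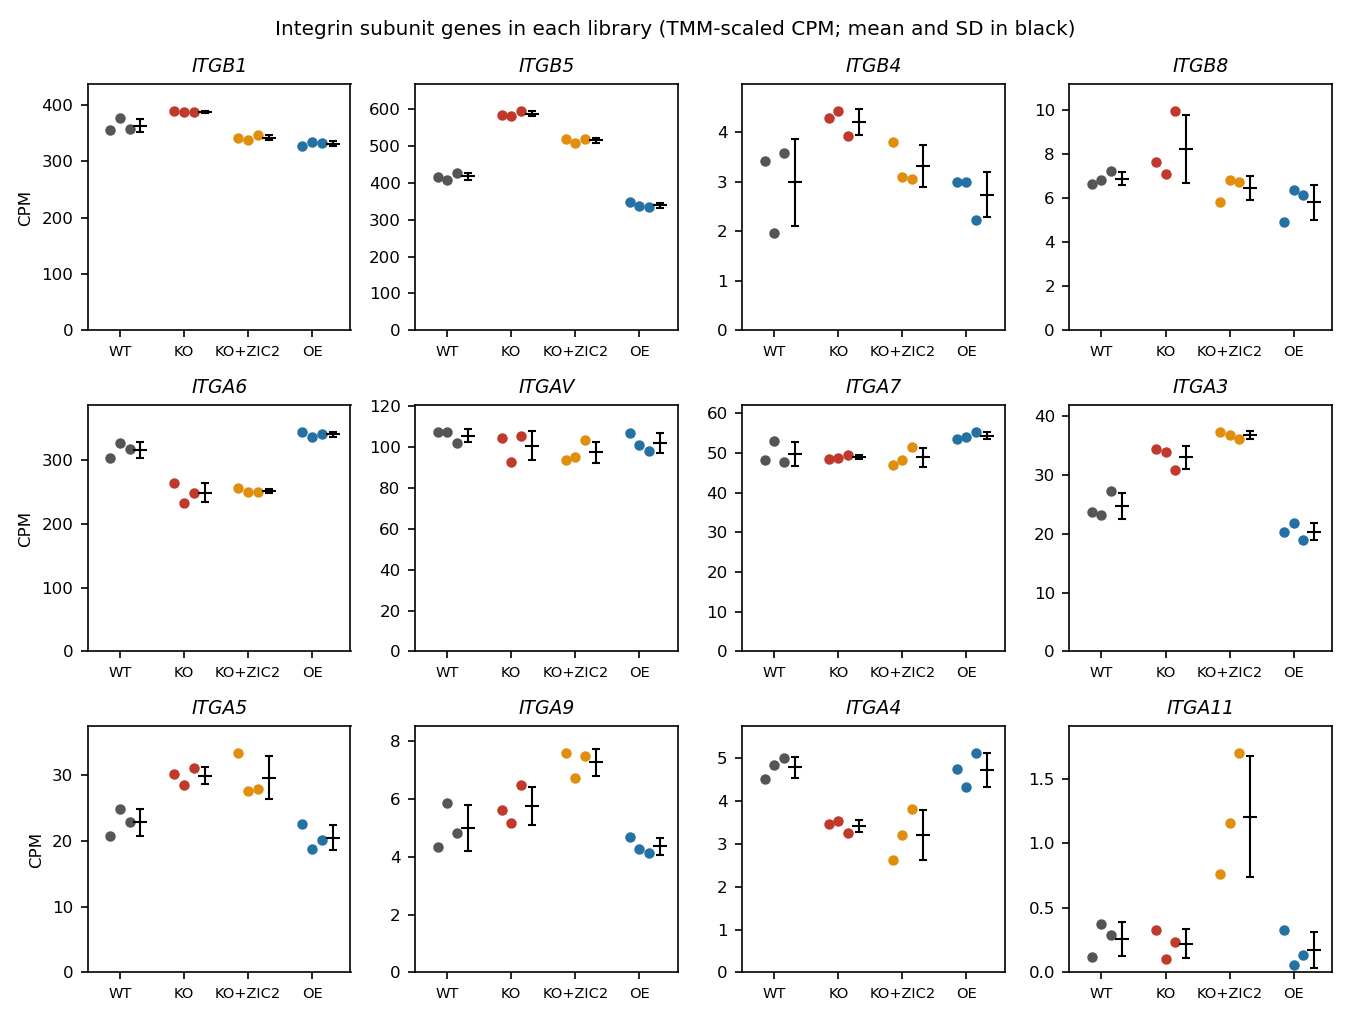
TMM-scaled CPM of integrin subunit genes in each of the 12 libraries, with the mean and SD of each group in black and axes that start at 0. ITGB5 separates all 4 groups, ITGA6 is lower in the 6 libraries with the knockout, and ITGA11 is highest in the 3 libraries with ZIC2.

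Levels of different genes were set side by side as CPM per kilobase of the deposited gene length. Within the laminin alpha class, LAMA1 was at 11.2 ± 0.282 CPM per kilobase (SD, n = 3) in WT and LAMA5 at 10.4 ± 0.588 (SD, n = 3). In knockout LAMA1 was at 9.22 ± 1.36 and LAMA5 at 14.3 ± 1.68 (SD, n = 3). The ratio of LAMA5 to LAMA1 was 0.889 to 0.942 in the WT libraries, 1.47 to 1.61 in knockout, 1.31 to 1.40 with ZIC2 and 0.909 to 0.969 under overexpression. Per kilobase, LAMA1 was thus the leading alpha chain transcript in all 6 libraries without the knockout, and LAMA5 in all 6 with it. This order depends on the length scaling, since by CPM alone LAMA5 was above LAMA1 in every library. Knockout replicate 2, the lowest of its group for both genes, had a ratio of 1.58, between those of the other 2 replicates. The ratios are given as values and were not tested. These ratios and those of integrin genes below use levels without the GC and length correction. Transcript GC content was 66.4% for LAMA5, 50.5% for LAMA1, 54.3% for ITGB5 and 40.0% for ITGB1.

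Within the beta class, LAMB3 made up 0.649% of the summed level per kilobase in knockout and 5.12% with ZIC2. LAMB1 and LAMB2 made up nearly all of the rest.

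Among integrin beta genes, ITGB5 and ITGB1 were nearly level in WT, with a ratio of ITGB5 to ITGB1 of 1.01 to 1.11 per kilobase. The ratio was 1.40 to 1.43 in knockout, 1.39 to 1.42 with ZIC2 and 0.936 to 0.987 under overexpression. Per kilobase, all 3 overexpression libraries thus had more ITGB1 than ITGB5, and the other 9 had more ITGB5. Here too the order depends on the length scaling, since by CPM alone ITGB5 was above ITGB1 in every library. The summed level of the 8 beta genes was 186 ± 1.65 CPM per kilobase (SD, n = 3) in WT, 231 ± 1.75 in knockout, 203 ± 2.37 with ZIC2 and 159.8 ± 0.954 under overexpression. ITGA6 was the leading alpha subunit in every group, with 52.8% of the summed alpha level in WT and 45.5% in knockout, followed by ITGAV and ITGA7. The ratio of ITGA3 to ITGA6 was 0.0855 to 0.104 in WT, 0.149 to 0.175 in knockout, 0.175 to 0.179 with ZIC2 and 0.0670 to 0.0783 under overexpression.

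**Figure D4:**
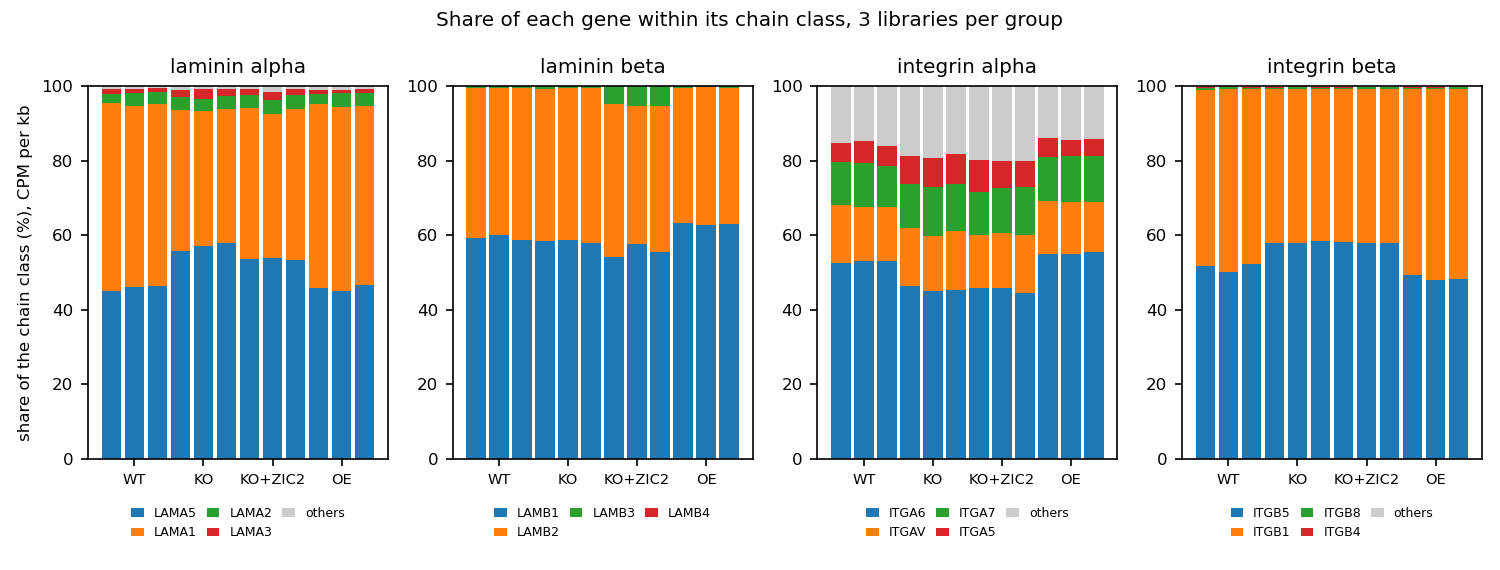
Share of each gene in the summed CPM per kilobase of its chain class, with 1 stacked bar per library, 3 bars per group, and shares in percent. LAMA5 exceeds LAMA1 in all 6 libraries with the knockout, LAMB3 reaches a mean of 5.12% with ZIC2, and ITGB5 is below ITGB1 in the 3 libraries with ZNF263 overexpression.

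Under ZNF263 overexpression 2 of the 30 genes were called, LAMB1 higher and ITGB5 lower, or 6.67%, where 0.764% of all genes were called (0.317% higher and 0.447% lower). CPM ranges did not overlap for 12 of the 30, against 19.4% of all genes. An unadjusted p under 0.05 in edgeR was found for 8 of the 30 and for 1630 of all 15437 genes. DESeq2 called 3 of the 30 and 107 of all genes. The median log2 fold change was -0.02 over the 30 genes, against 0.000339 over all genes. The 2 called values stand beside the knockout values of the same genes, which use the same WT libraries. They were 0.27 and 0.03 for LAMB1, and -0.30 and 0.49 for ITGB5.

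With ZIC2 added to knockout cells, 8 of the 30 genes were called (26.7%), where 8.34% of all genes were called (4.99% higher and 3.35% lower). LAMB3 and ITGA11 were higher (ITGA11 as a description only), and the 6 lower genes included LAMA3, LAMA5, LAMC3, ITGB1 and ITGB5. Ranges did not overlap for 12 of the 30, against 21.8% of all genes. The comparison of knockout with WT shares the knockout libraries, so values of these lower genes are only set side by side. Against WT, without and with ZIC2, they were 0.86 and 0.46 for LAMA3, and 0.47 and 0.26 for LAMA5. They were 0.56 and 0.38 for LAMC3, 0.09 and -0.09 for ITGB1, and 0.49 and 0.30 for ITGB5. ITGB1 and ITGB5 are the lower genes whose calls held without any single library.

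Against WT, the libraries with knockout and ZIC2 had 17 of the 30 genes called (56.7%), 12 higher and 5 lower, where 37.6% of all genes were called (20.3% higher and 17.3% lower). Ranges did not overlap for 17 of the 30, against 47.3% of all genes. The 5 lower genes were LAMA1, ITGA2, ITGA4, ITGA6 and ITGB1, though the value of ITGB1 became 0.01 under the GC and length correction and was not called there. Among the 12 higher were 7 of the 11 laminin genes tested, including LAMA3, LAMA4, LAMA5, LAMB3, LAMC1 and LAMC3, together with ITGA3, ITGA5, ITGA9, ITGA11 and ITGB5. ITGA11 is counted here as a description only, because it passed the count filter through the ZIC2 libraries.

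Genes that work with laminins and integrins were examined by list, and counts are given for knockout against WT, where 20% of all genes were higher and 18.5% lower. Of 19 other basement membrane genes tested, 4 were higher and 3 lower (median 0.01). SPARC, a collagen-binding matrix protein, was at 0.43 (adjusted p = 3e-09, SE 0.04), COL18A1, a basement membrane collagen, at 0.36 (adjusted p = 2.22e-07, SE 0.04), and the heparan sulfate proteoglycan AGRN, which binds laminin, at 0.39 (adjusted p = 1.85e-06, SE 0.05). Of 16 other laminin receptors and dystroglycan genes, 5 were higher and 2 lower (median 0.09). These included the laminin receptor DAG1 at 0.31 (adjusted p = 4.57e-07, SE 0.04) and the LAMA5 receptor BCAM at 0.27 (adjusted p = 8.54e-06, SE 0.04). Of 19 other integrin ligands, 12 were higher and 3 lower (median 0.23). The matricellular genes CYR61, CTGF and THBS1 were at 1.08 (adjusted p = 4.96e-14, SE 0.05), 0.89 (adjusted p = 9.98e-13, SE 0.05) and 0.75 (adjusted p = 1e-12, SE 0.04).

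Inside the cell, and again in knockout against WT, 12 of 23 integrin activators and adhesion plaque genes were higher and 1 was lower (median 0.24). Among all genes 20% were higher and 18.5% lower. PXN, a scaffold of focal adhesions, was at 0.64 (adjusted p = 9.68e-11, SE 0.04), ZYX, a sensor of tension there, at 0.53 (adjusted p = 7.97e-10, SE 0.04), and ILK, which binds beta subunit tails, at 0.47 (adjusted p = 5.25e-09, SE 0.04). Of 21 signalling kinases and adaptors, 8 were higher and 2 lower (median 0.05), with the caveolar gene CAV1 at 1.53 (adjusted p = 4.41e-13, SE 0.07) and the adaptor BCAR1 at 0.49 (adjusted p = 7.45e-09, SE 0.04). Of 14 inhibitors and traffic genes, 2 were higher and 2 lower (median 0.02), which like the basement membrane count is near the shares among all genes. Of 9 genes of hemidesmosomes and integrin-binding tetraspanins, 5 were higher and 1 was lower (median 0.19), with CD151, the tetraspanin partner of ITGA3 and ITGA6, at 0.63 (adjusted p = 1.06e-08, SE 0.06).

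Under ZNF263 overexpression, 3 of 19 integrin ligands were lower, where 0.447% of all genes were (CYR61 -0.37, THBS1 -0.34, CTGF -0.29), and PXN (-0.29) and CAV1 (-0.64) were the only called genes of their lists, both lower. With ZIC2 against knockout, 6 of 19 basement membrane genes were higher, where 4.99% of all genes were higher and 3.35% lower. NID2 and HSPG2, which link and fill the laminin and collagen networks, were at 0.63 (adjusted p = 0.00147, SE 0.12) and 0.37 (adjusted p = 0.0137, SE 0.09), chosen after their values were seen. Integrin ligands were split there, with 4 higher and 6 lower.

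Summed levels of marker lists of other cell types differed between some groups, while single markers of some lists were split. Endoderm markers summed to 9.71 to 10.9 CPM in WT, 13.4 to 16.7 in knockout, 13.5 to 14.3 with ZIC2 and 8.08 to 8.29 under overexpression. Of 2 tested genes, 1 (AFP) was higher in knockout. TTR had no count in WT, knockout or overexpression libraries, and SOX17 had none in WT only. Of the 5 fibroblast markers tested, 3 were higher in knockout, where 20% of all genes were. Neuroectoderm markers summed to 455 to 479 CPM in WT, 528 to 577 in knockout, 557 to 618 with ZIC2 and 467 to 476 under overexpression. Of the 5 tested, 1 was higher and 1 lower in knockout (median -0.06), and 1 was higher and 2 lower with ZIC2 against WT (median -0.05). Among all genes, 20% were higher and 18.5% lower in knockout, and 20.3% and 17.3% with ZIC2 against WT. Trophoblast markers summed to 5.14 to 5.44 CPM in WT, 5.66 to 7.23 in knockout, 7.09 to 8.41 with ZIC2 and 7.37 to 7.85 under overexpression. Of the 2 tested, 1 was higher in knockout (20% of all genes) and 1 under overexpression (0.317% of all genes). With ZIC2, 2 were higher against WT (20.3% of all genes) and 1 against knockout (4.99%), and none was lower in any comparison. Of 4 endothelial markers tested, 2 were higher and 1 was lower with ZIC2 against knockout. Among all genes there, 4.99% were higher and 3.35% lower. The 5 endothelial markers listed summed to 143 to 154 CPM with ZIC2 and 144 to 165 in knockout. Blood cell and platelet markers summed to at most 3.96 CPM in any library, and GP9 had no count. Across the 14696 tested genes with a transcript sequence, log2 fold change in knockout against WT correlated with GC content (Spearman rho 0.42 across genes, which are not independent). The same rho was 0.44 with ZIC2 against WT, 0.26 under ZNF263 overexpression against WT and 0.01 with ZIC2 against knockout. The part of these cell types and of GC content in the laminin and integrin values was not tested beyond the correction given above.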

How the data were processed

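Poly(A) RNA of 12 H1 libraries was sequenced. The table the authors deposited holds raw read counts per gene, in whole numbers. Per the submitters' processing notes, STAR, featureCounts, DESeq2 and the hg19 build were used, with versions and settings not given in the sources used here. Per the file headers, counts came from uniquely aligned reads, which lowers genes with near-identical copies, and per the labels' protocols the kit was NEBNext Ultra II RNA. Totals ran from 17175183 to 43464609 counts. Replicates differed by more than counting error (chi-square 1.37 to 9.82 per gene), so each was counted.

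Genes were filtered with filterByExpr and scaled by TMM. The quasi-likelihood test of edgeR 4.0.16 (R 4.3.3) was fitted to all 12 libraries by group, with 8 residual degrees of freedom, and p-values were adjusted by Benjamini-Hochberg over 15437 genes, with calls at 0.05. The fit was tested on simulated data. CPM per kilobase uses the deposited gene length, and intervals are at 95%. Alternatives were DESeq2 1.42.0, RLE size factors, no count filter, a replicate block, a GC content and length correction (transcript GC for 95.2% of genes), a minimum fold of 1.2, fits of only the 2 groups and leaving out each library. Per-library values are given for laminin chains, members called at an absolute log2 fold change of at least 0.3 in knockout against WT or with ZIC2 against knockout, and ITGB1, ITGA6, ITGAV, ITGA5 and ITGB5. From related lists up to 3 genes with the smallest adjusted p in knockout are named. Counts cover all members, and 1 gene is not reported here. Members and lists were chosen with earlier results of these data known.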

Additional observations from a re-analysis of the deposited data

How the results depend on the processing

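Here members are the 30 laminin and integrin genes tested. A minimum fold of 1.2 left 5 members called in knockout against WT (among them LAMA3, LAMA5, LAMC3 and ITGB5) and 925 of all genes. It left 2 members (LAMB3 and ITGA11) and 307 genes with ZIC2 against knockout, and 4 members (among them ITGA3, ITGA11 and LAMB3) and 989 genes with ZIC2 against WT. In both, ITGA11 is counted as a description only. For ZNF263 overexpression it left 0 members and 11 genes in edgeR, with 1 member and 257 genes at an unadjusted p under 0.05. DESeq2 without a minimum fold called 3 members and 107 genes. In that comparison the count of all genes was 118 and became 220 with no count filter, 227 under the GC and length correction, 230 with the replicate block and that correction, and 431 in a fit of only the 2 groups. Members called there were 4 under either correction and 5 in the fit of 2 groups. With ZIC2 against knockout, 1288 genes became 2295 under the GC and length correction, with 37.7% of calls higher against 59.9% in the uncorrected fit, and 2270 with the block and correction, and the fit of 2 groups called 5 members, without LAMA3, LAMA5 and LAMC3. The value of ITGAV in knockout was -0.06 and became 0.11 under the correction and 0.11 with the block added. ITGB1 with ZIC2 against WT went from -0.09 to 0.01403 and 0.0143. The cause was not tested.

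Leaving out 1 library at a time gave 11 to 17 members and 4782 to 5877 genes in knockout against WT, 2 to 2 members and 50 to 77 genes under overexpression, 4 to 9 members and 842 to 1476 genes with ZIC2 against knockout, and 14 to 16 members and 4549 to 5486 genes with ZIC2 against WT. Replicate numbers did not pair the samples: deviations of same-numbered libraries correlated at -0.11 to 0.112. In 4 of 12 checks a library correlated best with its own number in the other group. The ZIC2 libraries were checked both against knockout and against WT. A replicate block gave 14, 2, 8 and 16 members called in those comparisons and 5845, 108, 1244 and 5691 genes. Depth limits the genes with few counts: LAMB3 and ITGA11 outside the ZIC2 libraries, LAMA4, and the 8 genes that were not tested.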
